A study of Mus musculus with 36 samples.

Results

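This account describes 31 genes of cholesterol synthesis, uptake and efflux in mouse liver, out of 13042 named genes in the authors' table of expressed probes. The genes were listed by name, and the list was drawn up with earlier results of these data known. A gene is a member if a probe carries its name in the array files. It is also a member if the accession of a probe leads to its current symbol (Sc4mol is now named Msmo1). All 31 were represented in the table, by 53 of their 58 probes, and a gene with several probes in the table is given by the brightest of them. The genes fall into 18 of synthesis, 4 of sensing and control, 6 of transport, uptake and esterification, and 3 of efflux.

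The livers came from 36 adult male mice in 3 groups of 12, of the strain C57BL/6J by the sample labels and C57BL/6JOlaHsd by the published methods. All mice were adapted to a mild-high-fat diet with 30 en% fat, for 3 weeks according to the sample descriptions and for a shorter time according to the published methods. The t=0 mice were killed at the end of the adaptation, the control group (HF) stayed on the same diet for 12 weeks, and the quercetin group (HF-Q) received it for 12 weeks with 0.33% (w/w) of the flavonol quercetin. The mice were fasted for a short period before death, and the t=0 mice were younger than both other groups and were killed on another occasion, so age, time on the diet and occasion cannot be told apart in any comparison with t=0. Each array held Cy5-labelled RNA of 1 liver against a Cy3-labelled pool of all samples, and the 36 arrays lay on 9 slides, each of which held all 3 groups.

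A value is the authors' normalised log2 Cy5 signal of a probe, so that a difference of 1 is a change by a factor of 2, and levels of different probes were not set against each other. The array of HF-Q replicate 2 stood apart, with a Cy5 signal 8.96 times its background, beside 2.04 to 3.24 times on the other 35 arrays, and each call below was repeated without it. Liver tissue was borne out by its markers: 5 of the 6 hepatocyte markers had probes in the table, with a summed signal between 565000 and 1130000 in every mouse, while Vil1, Adipoq and Plin1, markers of intestine and fat, had none in it and Fabp2, also on that list, did. In RNA of whole liver, fewer cells of a type and less RNA per cell cannot be told apart.

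Cholesterol is made from acetyl-CoA through mevalonate, isoprenoids, squalene and a series of sterols. When sterols are scarce in the endoplasmic reticulum, the escort protein Scap carries the precursor of the transcription factor Srebf2 to the Golgi, where it is cleaved, and the released factor switches on nearly the whole set of synthesis enzymes together. When sterols are plentiful, Insig1 and Insig2 hold Scap back. Cholesterol leaves the hepatocyte through Abca1 to nascent high-density lipoprotein and through the Abcg5 and Abcg8 pair to bile, and hepatic synthesis follows feeding and the time of day.

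The quercetin group differed from the control group in 2 of the 31 genes. Insig2, the sterol-sensing anchor of Scap, was lower in the quercetin group by a factor of 1.78, and Sc5d, an enzyme of the late sterol steps, was lower by a factor of 1.25. Over the whole table, 2.36% of 21781 probes were called in this comparison (limma, Benjamini-Hochberg adjusted p under 0.05 over all probes). Of the 31 members, 20 had a lower and 11 a higher mean with quercetin, with a median difference of -0.07 on the log2 scale beside 0.01 over all probes, and every member had overlapping groups. The enzymes of synthesis, in contrast, differed widely from liver to liver inside each group.

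**Figure D1:**
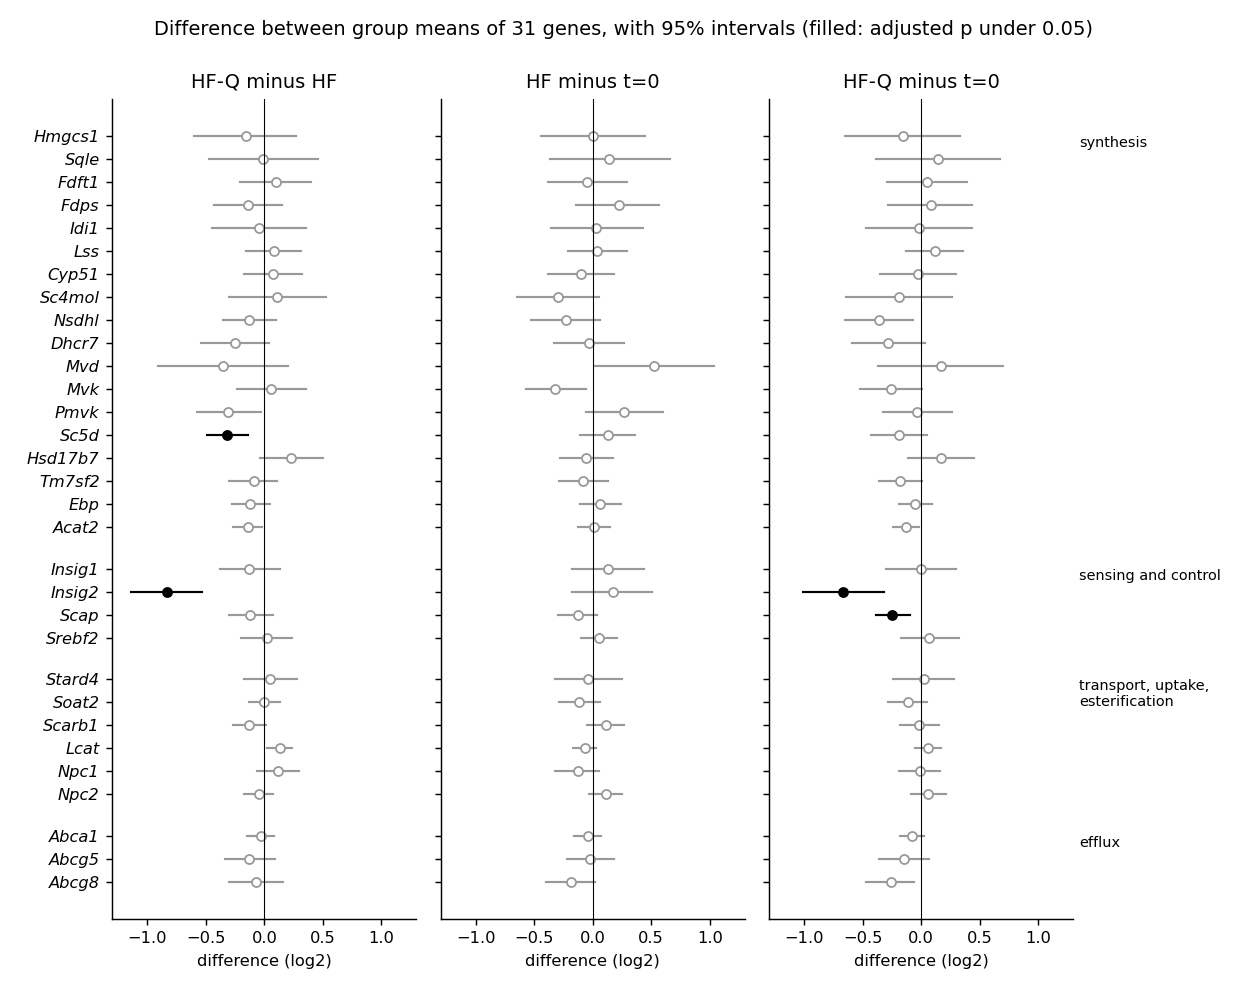
Difference between group means on the log2 scale (x axis) for the 31 genes, ordered by branch, in the 3 comparisons, with 95% intervals from limma. Insig2 and Sc5d in HF-Q minus HF and Insig2 and Scap in HF-Q minus t=0 are filled (adjusted p under 0.05), and all others are open.

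The promoters are shown first for genes whose mRNA moved together from liver to liver. The sequences are those of RefSeq (build GRCm38.p6), 250 bases before to 50 bases after a transcript start, and 24 of the 31 members matched an entry, with 31 promoters in all. Both strands were searched for TCACNCCAC, a form of the sterol regulatory element that Srebf2 binds, and for CCAAT, the box of NF-Y, a factor that acts beside Srebf2. The pair of motifs do not overlap in the promoters below, where both are in capitals (ATTGG is CCAAT on the other strand). Hmgcs1 makes HMG-CoA at the head of the pathway, Idi1 isomerises the isoprenoid unit, and Sc4mol removes methyl groups from sterols.
Hmgcs1, chr13:119690101-119690400, plus strand: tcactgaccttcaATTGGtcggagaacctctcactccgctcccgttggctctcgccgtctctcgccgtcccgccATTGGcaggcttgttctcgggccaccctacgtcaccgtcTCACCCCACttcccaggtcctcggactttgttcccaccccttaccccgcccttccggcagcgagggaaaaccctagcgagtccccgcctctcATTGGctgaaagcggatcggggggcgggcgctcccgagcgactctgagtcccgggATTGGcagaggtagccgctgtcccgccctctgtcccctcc
Idi1, chr13:8885356-8885655, plus strand: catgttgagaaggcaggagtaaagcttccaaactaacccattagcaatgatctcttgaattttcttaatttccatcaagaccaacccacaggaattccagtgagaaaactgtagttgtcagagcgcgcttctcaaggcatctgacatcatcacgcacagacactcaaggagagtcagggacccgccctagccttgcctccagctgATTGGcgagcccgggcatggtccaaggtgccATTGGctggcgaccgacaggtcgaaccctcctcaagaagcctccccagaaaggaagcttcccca
Sc4mol, chr8:64733529-64733828, minus strand: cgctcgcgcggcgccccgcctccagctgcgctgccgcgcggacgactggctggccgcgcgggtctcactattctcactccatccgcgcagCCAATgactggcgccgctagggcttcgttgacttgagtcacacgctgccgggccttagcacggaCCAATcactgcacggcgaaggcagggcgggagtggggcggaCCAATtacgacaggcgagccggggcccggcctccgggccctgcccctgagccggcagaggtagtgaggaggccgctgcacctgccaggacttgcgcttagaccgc
The Hmgcs1 promoter held 1 match to TCACNCCAC and 4 to CCAAT, that of Idi1 2 and that of Sc4mol 3 to CCAAT. The latter motif was present in a promoter of 14 of the 15 synthesis genes with an entry, the exception being Acat2, and in 14 of their 18 promoters (77.8%), beside 37.4% of all 32851 promoters of the table. The form TCACNCCAC was found in 1 of these 18 promoters and in 1.24% of all. A match is a description of the letters and no evidence of binding.

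None of the first enzymes of synthesis was called between quercetin and control. The mRNA of Hmgcs1 had a lowest, median and highest value of 13.85, 14.80 and 16.15 at t=0, 14.42, 14.87 and 16.18 in the control group, and 13.64, 14.69 and 16.13 in the quercetin group. The 3 ranges overlap almost fully, and the mean of the quercetin group was -0.16 from that of the control group on the log2 scale (95% interval -0.60 to 0.27, adjusted p = 0.747, limma). Acat2, which condenses acetyl-CoA in the cytosol, differed by -0.14 (adjusted p = 0.235), and 11 of the 12 mice given quercetin were under the median of the controls. The kinases Mvk and Pmvk differed by 0.06 and -0.31, and the decarboxylase Mvd by -0.35, each with an adjusted p above the threshold. Pmvk lay below the control median in 10 of 12 quercetin-fed mice, and its other probe gave -0.28 (adjusted p of both 0.268 and 0.293).

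Idi1 had a lowest, median and highest value of 13.03, 14.33 and 15.15 at t=0, 13.66, 14.25 and 15.12 in the control group, and 13.36, 14.01 and 15.46 in the quercetin group. Its difference between quercetin and control was -0.05 (95% interval -0.45 to 0.36, adjusted p = 0.929), and the groups overlap throughout. The array files (build mm8) place both Idi1 probes on chromosome 2, the brightest at 53516550 to 53516609, whereas RefSeq holds the gene on chromosome 13. Whether these probes read a second copy of the sequence was not tested. Fdps, which joins the isoprenoid units, differed by -0.14 (adjusted p = 0.659).

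Squalene synthase (Fdft1) and squalene epoxidase (Sqle) open the sterol branch. Sqle (chromosome 15, 59160510 to 59160569 in mm8) had the widest spread at t=0, with a lowest, median and highest value of 10.69, 12.60 and 13.50, beside 11.58, 12.61 and 13.46 in the control group and 11.42, 12.65 and 13.93 in the quercetin group. The lowest and the highest t=0 mouse thus differed by a factor of 7.00, while the difference between the quercetin and the control mean was -0.01 (95% interval -0.47 to 0.46, adjusted p = 0.994). Fdft1 differed by 0.10 (95% interval -0.21 to 0.40), with an adjusted p of 0.791. For Sqle a true difference of the size seen for Sc5d lies inside the interval, so these 12 mice a group do not exclude it.

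Of the enzymes that make lanosterol and turn it into cholesterol, most had small differences of either sign between quercetin and control. Lss, the lanosterol synthase, differed by 0.08, the demethylase Cyp51 by 0.07 and Sc4mol by 0.11, and Nsdhl, its partner in removing methyl groups, by -0.13. The reductase Hsd17b7 gave 0.23, the sterol reductase Tm7sf2 -0.09, the isomerase Ebp -0.12 and Dhcr7, which makes the last double-bond reduction, -0.25. The adjusted p of these 8 genes ranged upward from 0.388 (Dhcr7). The different probes of Lss, Cyp51, Nsdhl, Dhcr7 and Hsd17b7 all had the same sign as the brightest, whereas those of Hmgcs1 and Idi1 split, with 0.07 for the dimmer Hmgcs1 probe and 0.12 for the dimmer Idi1 probe.

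Sc5d, which introduces a double bond into the sterol ring, was the enzyme that differed (brightest probe on chromosome 9, 42005769 to 42005828 in mm8). Its lowest, median and highest value was 15.04, 15.75 and 16.35 at t=0, 15.51, 15.80 and 16.24 in the control group, and 14.99, 15.53 and 15.80 in the quercetin group. All 12 quercetin-fed mice lay below the control median, 6 of them below the lowest control mouse, and the t=0 mice spanned nearly the whole range of both. The mean was 15.83 ± 0.21 (SD, n = 12) in the control and 15.51 ± 0.22 (SD, n = 12) in the quercetin group, a difference of -0.32 (95% interval -0.49 to -0.14, adjusted p = 0.0436, limma). The dimmer probe gave -0.22 (adjusted p = 0.358), and the call was lost without HF-Q replicate 2 (-0.31, adjusted p = 0.0682), with scanner values normalised by loess (-0.29, adjusted p = 0.0513), and in 7 of the other 11 alternatives.

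The Sc5d promoter is shown because this was the called enzyme. Capitals mark 1 CCAAT match and the only other of the searched motifs in it, CACGTG, the E-box that the clock factors Arntl and Clock bind.
Sc5d, chr9:42264251-42264550, minus strand: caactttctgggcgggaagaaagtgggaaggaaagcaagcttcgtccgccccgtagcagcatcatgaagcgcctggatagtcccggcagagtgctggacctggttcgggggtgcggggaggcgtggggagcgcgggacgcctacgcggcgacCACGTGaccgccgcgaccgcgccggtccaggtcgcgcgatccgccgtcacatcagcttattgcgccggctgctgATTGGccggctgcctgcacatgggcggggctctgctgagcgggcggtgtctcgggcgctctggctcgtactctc
CACGTG was present in promoters of 3 of the 15 synthesis genes (Dhcr7, Sc5d and Hsd17b7). It was in 3 of their 18 promoters (16.7%), beside 7.15% of all promoters. Of the other members, Insig1, Scap and Abca1 held it too. TAGGTCA, the element of the ROR and Rev-erb receptors, was found in promoters of 1 synthesis gene, Dhcr7. These were 2 of the 18 synthesis promoters (11.1%), beside 2.61% of all. The D-box TTATGNAA, bound by Dbp, was found in promoters of no member and in 3.38% of all.

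Taking the 18 synthesis genes as a list, 12 had a lower and 6 a higher mean with quercetin than in the controls, where 54.8% of all probes were higher. Of the 18, 1 was called, beside 2.36% of all probes, and 3 had an unadjusted p under 0.05, beside 3359 of the 21781 probes. The median difference was -0.11, beside 0.01 over all probes, and ranged from -0.12 to 0.03 over 13 alternatives. The value of 0.03 arose with Arntl as a covariate, where 7 of the 18 were lower. Since these genes moved together between livers, their signs are not 18 separate observations.

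Within every group, the synthesis mRNAs differed strongly between livers. The SD between mice of the 18 genes had a median of 0.45 at t=0, 0.36 in the control group and 0.38 in the quercetin group, beside 0.16, 0.17 and 0.17 over all probes of the table. Sqle, Hmgcs1 and Mvd had the widest spread, with SD of 0.76, 0.65 and 0.65 at t=0. Acat2 and Ebp were the steadiest, with SD of 0.15 and 0.18 at t=0. The 3 efflux genes had a median SD of 0.23, 0.25 and 0.28 in the t=0, control and quercetin group, and the 6 of transport, uptake and esterification 0.22, 0.16 and 0.17. Background was not subtracted in these values, which compresses the spread of dim probes.

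**Figure D2:**
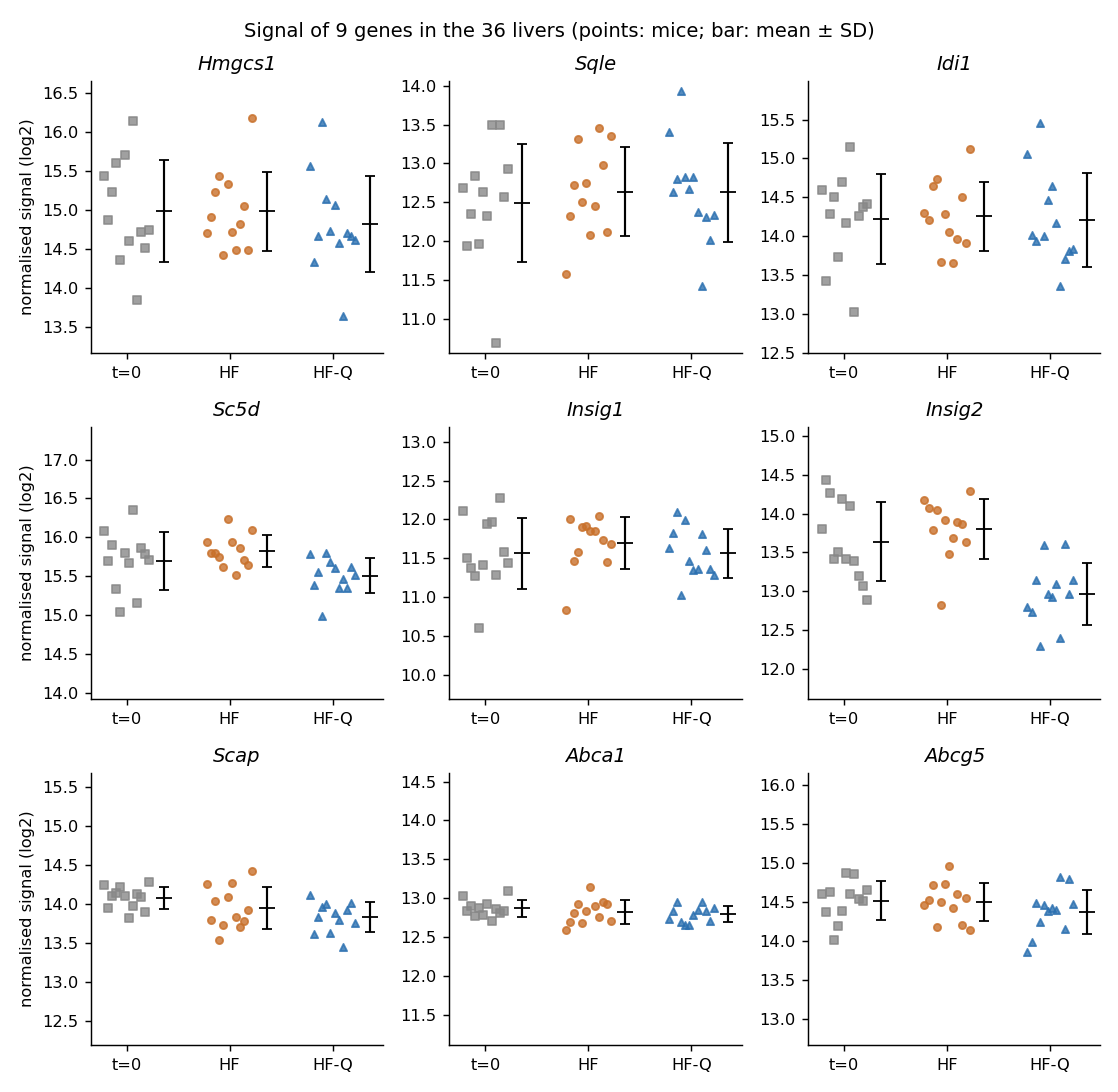
Normalised log2 signal (y axis, the same span in each panel) of 9 genes in the t=0, HF and HF-Q mice, with the mean ± SD (n = 12) of each group. Hmgcs1, Sqle and Idi1 spread widely in all 3 groups, Insig2 is lower in the quercetin group, and Abca1 stays within 12.59 to 13.14 in all 36 mice.

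A mouse that was low in 1 synthesis gene was usually low in the others. At t=0, replicate 9 had the lowest value of the group in 14 of the 18 genes and replicate 8 the highest in 11, and both replicates 1 and 8 lay above the group median in all 18. In the control group, replicate 12 was the highest in 12 genes. In the quercetin group, replicates 1 and 4 were the highest in 8 genes each, and replicate 9 was the lowest in 11. The median deviation of a mouse from its group over the 18 genes reached -0.96 (t=0 replicate 9) and 0.62 (HF-Q replicate 4), larger in size than the median difference between any pair of groups.

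**Figure D3:**
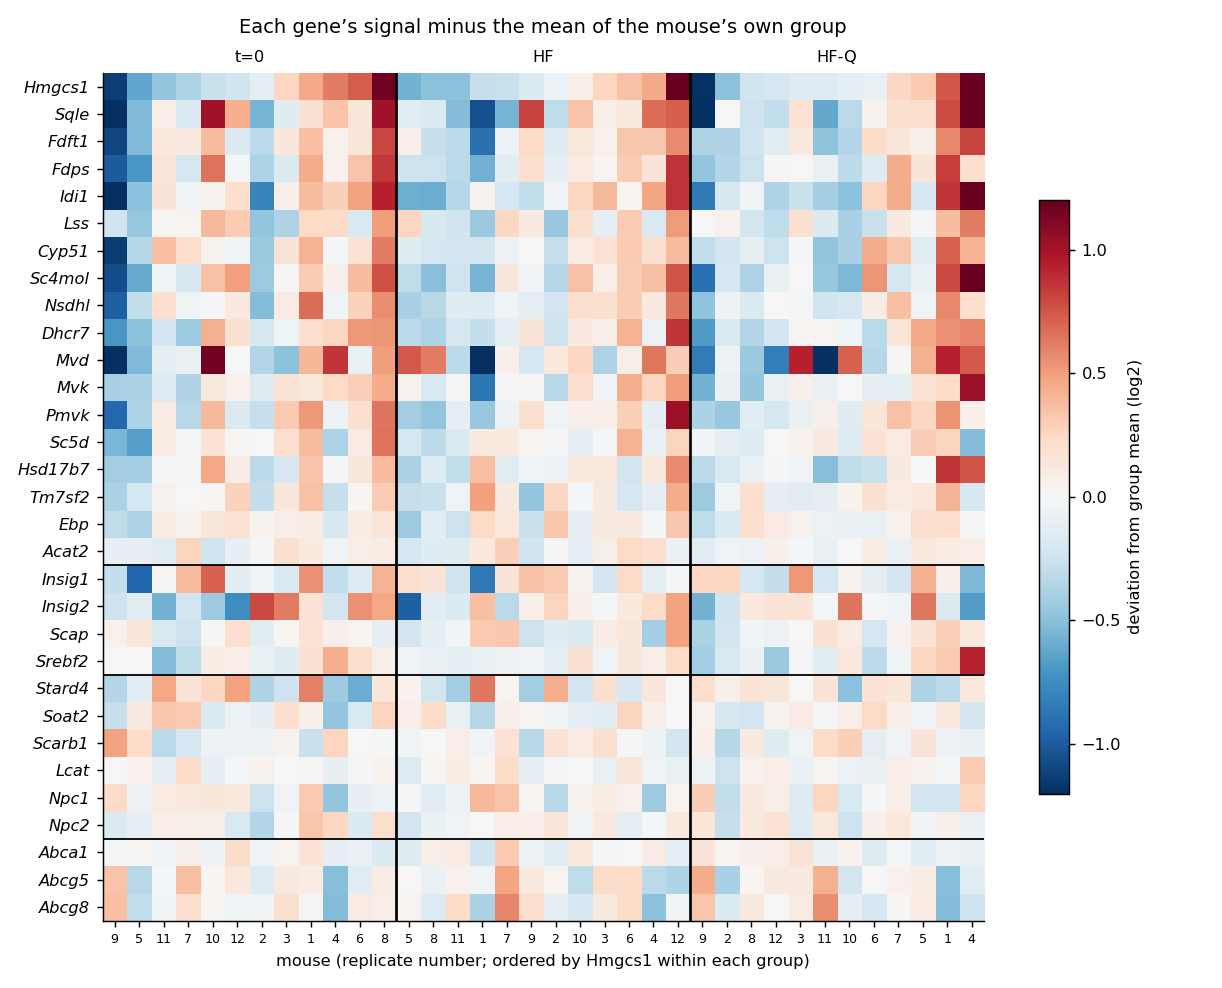
Deviation of each gene (rows, in the 4 branches) from the mean of the mouse's own group (log2, colour) in the 36 livers (columns, ordered by Hmgcs1 within t=0, HF and HF-Q). Most of the 18 synthesis genes darken together at both ends of each group, as in t=0 replicate 9 and replicate 8, but Sc5d in HF-Q does not follow. The rows of transport and efflux are mostly paler.

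Over the 153 pairs of synthesis genes, the median correlation between livers was 0.76 at t=0, 0.55 in the control group and 0.63 in the quercetin group (Pearson r, n = 12 mice each). Over all pairs of probes in the table the median was 0.01, 0.02 and 0.02. A correlation above 0.5 was reached by 85.0%, 56.9% and 69.3% of the synthesis pairs, and by 9.2%, 10.6% and 10.0% of all pairs. Single genes departed from this: with Hmgcs1, r was -0.14 for Sc5d in the quercetin group and 0.14 for Mvd in the control group. With the group means removed over the 36 mice the median was 0.61, and with the slide removed as well it was 0.63. Correlations within a slide could not be computed, because each slide held 4 arrays.

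The correlation was tested for 11 pairs of genes in each group, 33 relations in all, each with 100000 two-sided permutations and Benjamini-Hochberg adjustment over the 33. These pairs were chosen with earlier results of these data known, which their p-values do not take into account. Hmgcs1 and Idi1 rose and fell together in every group: Pearson r was 0.82 at t=0 (adjusted p = 0.00384), 0.92 in the control group (adjusted p = 0.00099) and 0.89 in the quercetin group (adjusted p = 0.00106, all permutation tests). Spearman rho was 0.82, 0.87 and 0.66, with adjusted p of 0.0119, 0.0066 and 0.0719. Without the 2 mice farthest from the median of Hmgcs1, r was 0.59, 0.84 and 0.73. Hmgcs1 and Sqle gave r of 0.67, 0.63 and 0.93 (permutation test, adjusted p = 0.0462, 0.0641 and 0.00106), but at t=0 and in the control group r fell to 0.21 and 0.41 without the 2 farthest mice and rested on them, while it was 0.74 in the quercetin group. With scanner values normalised by loess, r in the control group was 0.71 (permutation test, adjusted p = 0.022) and passed the threshold. Their rho was 0.55, 0.64 and 0.83, with adjusted p of 0.138, 0.0756 and 0.0119.

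Srebf2, the transcription factor that drives the enzymes and its own gene, followed Hmgcs1 in the control and quercetin group. Its r with Hmgcs1 was 0.78 (adjusted p = 0.00792) and 0.87 (adjusted p = 0.00176, permutation tests) there, and 0.50 at t=0 (adjusted p = 0.177). Spearman rho was 0.65, 0.79 and 0.57 in the same order (adjusted p = 0.0719, 0.0159 and 0.129), and r without the 2 farthest mice 0.61, 0.69 and 0.68. Whether the groups differ in this relation was not tested. The level of Srebf2 itself differed between quercetin and control by 0.02 (95% interval -0.20 to 0.24), and that of Scap by -0.12 (adjusted p = 0.565).

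**Figure D4:**
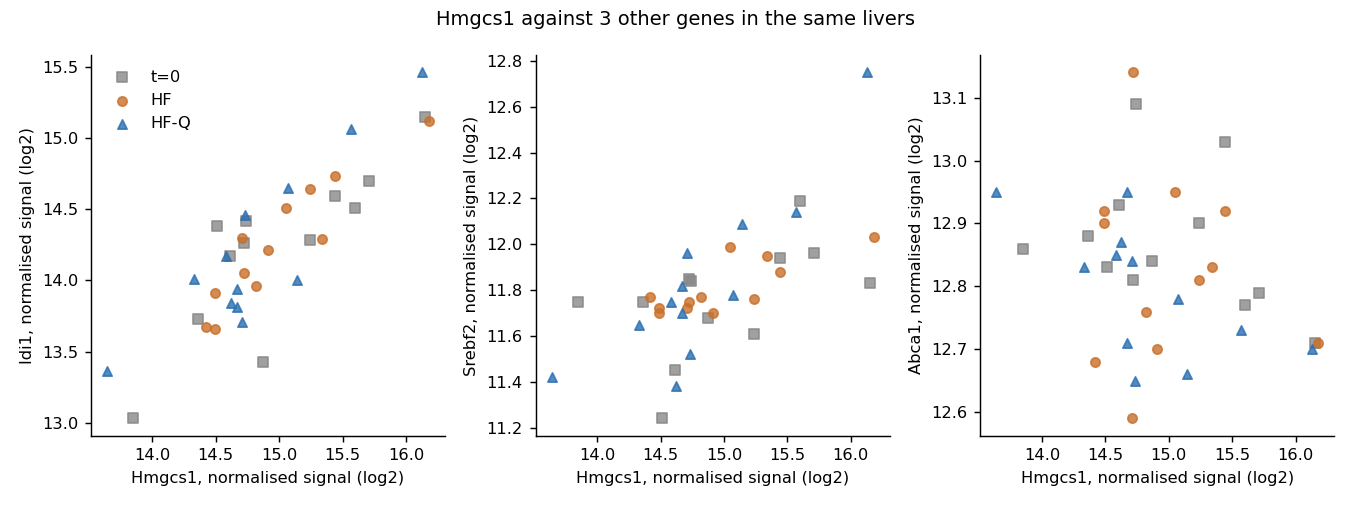
Normalised log2 signal of Idi1, Srebf2 and Abca1 (y axes) against Hmgcs1 (x axes) in the 36 livers, by group. Idi1 rises with Hmgcs1 in each group (r of 0.82, 0.92 and 0.89 in t=0, HF and HF-Q), and Abca1 does not.

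For Insig1 and Stard4, no relation with Sqle passed the threshold in any group. With 12 mice a group, this does not show that they varied apart from the enzymes. Insig1, the classical Srebf2-driven brake, had a lowest, median and highest value of 10.61, 11.48 and 12.27 at t=0, 10.83, 11.79 and 12.04 in the control group, and 11.03, 11.54 and 12.09 in the quercetin group. The groups overlap, with a quercetin minus control difference of -0.13 (95% interval -0.38 to 0.13). Its r with Sqle was 0.55, 0.48 and -0.26 in the t=0, control and quercetin group (permutation test, adjusted p = 0.14, 0.197 and 0.501), with rho of 0.50, 0.30 and -0.01 (adjusted p = 0.192, 0.42 and 0.991), and r without the 2 farthest mice was 0.48, -0.25 and 0.43. Stard4, a carrier of cholesterol between membranes, gave r with Sqle of 0.43, -0.45 and -0.23 (adjusted p = 0.235, 0.22 and 0.531), with rho of 0.38, -0.41 and -0.42 (adjusted p = 0.301, 0.263 and 0.263, permutation tests) and r of 0.31, 0.10 and -0.34 without the 2 farthest mice.

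Insig2 was the member with the clearest difference between quercetin and control. It is also among the genes that the study itself picked on these mice, so its difference here is not independent evidence. Its lowest, median and highest value (brightest probe, chromosome 1, 123132054 to 123132113 in mm8) was 12.89, 13.46 and 14.43 at t=0, 12.83, 13.88 and 14.29 in the control group, and 12.30, 12.96 and 13.61 in the quercetin group. All 12 quercetin-fed mice lay below the control median and 4 below the lowest control mouse, replicate 5, which at 12.83 stood well under the next control mouse at 13.48.

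The mean of Insig2 was 13.81 ± 0.38 (SD, n = 12) in the control and 12.97 ± 0.40 (SD, n = 12) in the quercetin group, a difference of -0.83 (95% interval -1.14 to -0.53, adjusted p = 0.00233, limma). A second probe, designed on another transcript record of the gene (123133102 to 123133161), gave -0.62 (95% interval -0.91 to -0.34, adjusted p = 0.0137). Without HF-Q replicate 2 the brightest probe gave -0.81 (adjusted p = 0.0044). Against t=0 the quercetin group was lower by -0.67 and -0.80 by these 2 probes (adjusted p = 0.0114 and 0.000786), and the control group differed from t=0 by 0.17 and -0.17 (adjusted p = 0.494 and 0.446).

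RefSeq lists 3 promoters for Insig2, of which the single one with a match to the searched motifs is given, since Insig2 carried the largest difference of the members. Capitals mark its 3 matches to CCAAT.
Insig2, chr1:121332540-121332839, minus strand: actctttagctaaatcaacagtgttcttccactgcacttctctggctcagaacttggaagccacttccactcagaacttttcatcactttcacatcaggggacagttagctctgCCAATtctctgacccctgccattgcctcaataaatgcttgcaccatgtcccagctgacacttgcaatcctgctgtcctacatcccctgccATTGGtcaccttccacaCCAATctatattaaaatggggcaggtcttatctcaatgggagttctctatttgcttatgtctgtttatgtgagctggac
None of the 3 held any of the other 4 motifs searched (TCACNCCAC and those named with Sc5d), and the 300 bases of a promoter say nothing of sites elsewhere.

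Insig2 moved with a clock gene between livers. Arntl, a core clock activator whose mRNA is high around dawn in mouse liver, had a lowest, median and highest value of 7.10, 8.11 and 9.45 at t=0, 7.80, 8.98 and 9.23 in the control group, and 6.90, 7.81 and 8.61 in the quercetin group. With means of 8.78 (control) and 7.78 (quercetin), it was lower with quercetin by a factor of 2.0 (adjusted p = 0.0034, limma). Dbp, a clock output gene high around dusk, ran from 14.36 to 16.19 in the control group and from 15.01 to 16.55 in the quercetin group, a difference of 0.92 (adjusted p = 0.00741). Of 3 measured genes high around dawn, limma called 2 lower with quercetin, and of 8 high around dusk it called 4 higher, beside 2.36% of all probes called.

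The r of Insig2 with Arntl was 0.86 at t=0 (adjusted p = 0.00203), 0.71 in the control group (adjusted p = 0.0313) and 0.56 in the quercetin group (adjusted p = 0.122, permutation tests). Spearman rho was 0.91, 0.71 and 0.36, with adjusted p of 0.00429, 0.0483 and 0.311. Without the 2 mice farthest from the median of Insig2, r was 0.78, 0.73 and 0.28. The value in the quercetin group turned on 1 array: without HF-Q replicate 2, the array that stood apart, r was 0.76 (adjusted p = 0.0206, permutation test), past the threshold, and with scanner values normalised by loess it was 0.39 (adjusted p = 0.304). Over the 36 mice with group means removed r was 0.74, and 0.77 with the slide removed too. At t=0 both genes ran with the replicate number. Arntl ran from 8.06 to 9.45 in replicates 1 to 6 and from 7.10 to 8.20 in replicates 7 to 12. Insig2 ran from 13.42 to 14.43 and from 12.89 to 14.10 in the same order. The permutations treat the 12 mice as exchangeable, and the part of this order in the r at t=0 was not tested. With Arntl as a covariate the quercetin minus control difference of Insig2 was -0.34 (adjusted p = 0.339), of the same sign and not called, and 1 probe of the whole table was called. Because Arntl itself differed between quercetin and control, this fit cannot separate the clock genes from the diet. The part of the clock genes in the difference was not tested.

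**Figure D5:**
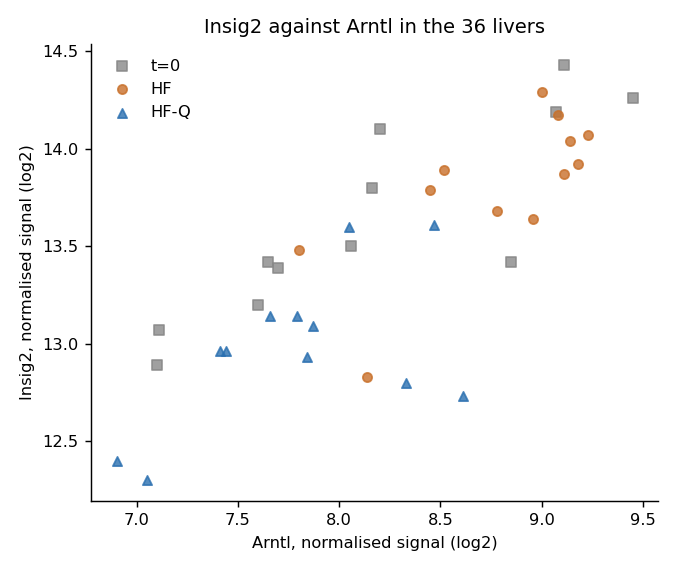
Normalised log2 signal of Insig2 (y axis) against Arntl (x axis) in the 36 livers, by group. Insig2 rises with Arntl at t=0 (r = 0.86) and in HF (r = 0.71), and the HF-Q mice lie lower on both axes.

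Insig1 and Insig2 did not vary together. Their r was 0.00, -0.31 and 0.34 in the t=0, control and quercetin group, and rho -0.07, -0.11 and 0.18, with adjusted p from 0.358 to 0.988 for r and from 0.68 to 0.879 for rho (permutation tests). Without the 2 farthest mice r was 0.10, -0.21 and 0.02. No relation of Hmgcs1 with the clock genes passed the threshold either. Its r with Arntl was 0.53, 0.38 and 0.05 (adjusted p = 0.15, 0.311 and 0.904, permutation tests). With Dbp it was -0.46, -0.44 and -0.18 (adjusted p = 0.214, 0.224 and 0.641, permutation tests). The rho values were 0.59, 0.49 and 0.06 with Arntl (adjusted p = 0.107, 0.203 and 0.879) and -0.48, -0.46 and -0.41 with Dbp (adjusted p = 0.21, 0.223 and 0.263). In the quercetin group, r of Hmgcs1 with Arntl was 0.21 without HF-Q replicate 2 and 0.53 with loess (permutation tests, adjusted p = 0.586 and 0.135). Without the 2 farthest mice r was 0.66, 0.32 and 0.10 with Arntl, and -0.63, -0.23 and -0.38 with Dbp. Over the 36 mice with group means removed, r of Hmgcs1 was 0.35 with Arntl and -0.37 with Dbp. With the slide removed too, these were 0.42 and -0.46, and they were not tested. A relation of Hmgcs1 with the clock genes is thus not excluded.

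The genes of transport, uptake and esterification differed little. With quercetin 4 of these 6 genes had a higher and 2 a lower mean than in the controls, and limma called 0. An unadjusted p under 0.05 was found for 1 of them, beside 3359 of the 21781 probes. The median difference was 0.03, or -0.11 with 5 lower when Arntl was a covariate. The gene with the lowest unadjusted p was Lcat, which esterifies cholesterol on lipoproteins, at 0.13 (95% interval 0.02 to 0.24, adjusted p = 0.233), and 11 of the 12 mice given quercetin exceeded the median of the controls. Scarb1, the receptor for high-density lipoprotein, gave -0.13, the acyltransferase Soat2 0.00, and Npc1 and Npc2, which move cholesterol out of the lysosome, 0.12 and -0.05. The brightest probe of Stard4 gave 0.05 and its 2 dimmer probes 0.29 and 0.26 (adjusted p = 0.848, 0.167 and 0.246), so the size for Stard4 depended on the probe.

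None of the 3 efflux genes was called in any of the 3 comparisons. Abca1 had a lowest, median and highest value of 12.71, 12.85 and 13.09 at t=0, 12.59, 12.82 and 13.14 in the control group, and 12.65, 12.81 and 12.95 in the quercetin group. Its ranges overlap almost fully, and the 95% interval of the quercetin minus control difference, -0.15 to 0.08 around -0.03, was narrow. Abcg5 had 14.01, 14.58 and 14.88, 14.14, 14.51 and 14.97, and 13.86, 14.42 and 14.82 in the same order, with a difference of -0.13 (95% interval -0.34 to 0.09) and 10 of the 12 mice given quercetin under the median of the controls. Abcg8 differed by -0.07 (95% interval -0.30 to 0.16, adjusted p = 0.789). Against t=0, Abcg8 differed by -0.26 in the quercetin group (95% interval -0.47 to -0.06, adjusted p = 0.0797, limma), with 10 of 12 mice below the t=0 median, and by -0.19 in the control group (adjusted p = 0.172). Its dimmer probe gave -0.05 and -0.11. Over the 3 efflux genes the median quercetin minus control difference was -0.07, and -0.38 with Arntl, a clock gene described above, as a covariate, with all 3 lower in both and none called.

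Abcg5 and Abcg8, which lie next to each other in the genome and form 1 transporter, were tightly tied between livers. Their r was 0.89 at t=0, 0.80 in the control group and 0.90 in the quercetin group (adjusted p = 0.00106, 0.00792 and 0.00106, permutation tests), with rho of 0.70, 0.81 and 0.83 (adjusted p = 0.0483, 0.0128 and 0.0119). Without the 2 farthest mice r was 0.68, 0.80 and 0.88. Between the synthesis and the efflux genes the median r over 54 pairs was -0.09, -0.05 and -0.50 in the t=0, control and quercetin group. No pair had an r above 0.5, while 15, 26 and 2 pairs had an r above 0. The lowest r was -0.47, -0.52 and -0.75 in the same order. In the quercetin group the median was -0.58 without HF-Q replicate 2 and -0.41 with loess. For Hmgcs1 and Abca1, r was -0.33, -0.10 and -0.64 (adjusted p = 0.358, 0.799 and 0.0517) and rho -0.41, 0.15 and -0.69 (adjusted p = 0.263, 0.724 and 0.0483, permutation tests), and r was -0.18, 0.03 and -0.48 without the 2 farthest mice. With loess, r in the quercetin group was -0.41 (permutation test, adjusted p = 0.283). Whether the quercetin group differs from the others in this was not tested.

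The control group and t=0 differed past the threshold in no member. Between the control group and t=0, 0 of the 31 genes were called (limma, adjusted p under 0.05) while 21.3% of all probes were. The t-test of the published methods with Benjamini-Hochberg adjustment called 0 as well. Of the members 2 had an unadjusted p under 0.05, beside 7722 of the 21781 probes. These 2 were Mvd, 0.52 higher in the control group (95% interval 0.01 to 1.04, adjusted p = 0.135) and above the t=0 median in 11 of 12 mice, and Mvk at -0.32 (95% interval -0.57 to -0.06, adjusted p = 0.0659). Of the members 15 were higher and 16 lower, with a median of -0.02. In the same comparison the haemoglobin genes Hba-a1 and Hbb-b1 were called higher, and the remaining blood marker, Alas2, differed by -0.14 and was not called. The summed signal of the 3 blood markers ran from 51600 to 97000 at t=0 and from 98100 to 389000 in the control group. All 6 markers of macrophages were higher with none called (27500 and 37900 as medians of their sum). Of 5 measured hepatocyte markers 3 were higher and 2 lower, and Cps1 was called lower. Of 4 endothelial markers 2 were higher and 2 lower, and Pecam1 was called lower. The part of these cell types in these values was not tested.

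Between the quercetin group and t=0, 2 of the 31 genes were called, Insig2 and Scap, where 11.9% of all probes were. The quercetin group was lower in both. Scap (chromosome 9, 110229943 to 110230002 in mm8) had a lowest, median and highest value of 13.82, 14.10 and 14.28 at t=0, 13.54, 13.88 and 14.43 in the control group, and 13.45, 13.86 and 14.12 in the quercetin group. The quercetin group was lower than t=0 by -0.25 (95% interval -0.39 to -0.10, adjusted p = 0.0204, limma), with 11 of 12 mice below the t=0 median, and the control group by -0.13 (adjusted p = 0.274). The 2 dimmer probes of Stard4 were higher than at t=0 by 0.40 and 0.42 (adjusted p = 0.026 and 0.0257), while the brightest gave 0.02. The quercetin and the control group are compared here with the same 12 mice at t=0, so these differences share them. In this comparison the summed blood signal ran from 123000 to 252000 in the quercetin group, and the haemoglobin genes were called higher and Alas2 lower. Of the 5 measured hepatocyte markers, 2 were called lower than at t=0, Ttr by -0.33 and Cps1 by -0.45 (adjusted p = 0.0377 and 0.00294, limma). All 6 macrophage markers had a higher mean, by 0.10 to 0.92, with none called and 5 at an unadjusted p under 0.05, beside 5766 of the 21781 probes. Their summed signal ran from 18100 to 69600 at t=0 and from 28000 to 50500 in the quercetin group. The part of these cell types in the values of Insig2 and Scap was not tested.

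Of 32 other genes of the pathway, 31 had probes in the table, and 1 was called between quercetin and control, beside 2.36% of all probes. Vldlr, a lipoprotein receptor low in liver, had a lowest, median and highest value of 6.96, 7.40 and 8.56 in the control group and 7.66, 8.09 and 8.61 in the quercetin group, and 7.06, 7.36 and 8.03 at t=0. Each of the 12 mice given quercetin exceeded the median of the controls, and control replicate 5, at 8.56, lay among them. The difference was 0.60 (95% interval 0.33 to 0.88, adjusted p = 0.013, limma) for this dim probe, 0.37 (adjusted p = 0.0907) for the other, and 0.38 (adjusted p = 0.0687) with scanner values normalised by loess. The 31 genes had a median difference of -0.01, with 14 higher and 17 lower.

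Between the control group and t=0, 5 of these 31 genes were called, beside 21.3% of all probes, and 4 of them are given here. Syvn1, a ubiquitin ligase of the endoplasmic reticulum, was higher by 1.01 (adjusted p = 0.00228), the cholesterol transporter Abcg1 by 0.35 and the sterol-binding Osbp by 0.19, and the cholesterol ester hydrolase Nceh1 differed by -0.46. Between the quercetin group and t=0, 6 of the 31 were called, beside 11.9% of all probes. Among them Syvn1 and Vldlr were higher and Ggps1 and Nr1h2 lower. The call of Syvn1 in this comparison (0.59, adjusted p = 0.048, limma) held in 4 of 13 alternatives, with an adjusted p of up to 0.117, and that of Vldlr in all 13.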

How the data were processed

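Liver RNA of 36 mice was measured on Agilent 2-colour arrays. Per the labels, the scans were read with Feature Extraction 10.5.1.1. The deposited scanner files hold spot and background intensity for each dye. The authors deposited a table of log2 values for 23256 spots (21781 probes), which was the main source. Its scale was checked on the scanner intensities: it is log2 Cy5 minus log2 Cy3 of a spot plus the spot's mean log2 Cy3, centred on 1 median (8.961) per array, without background subtraction (median absolute difference 0.0199).

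Groups and numbers came from the sample descriptions. Replicate numbers did not pair the mice (residual correlation between same-numbered HF-Q and HF mice: median -0.01, above 0.1 in 3 of 12 pairs). Each pair of groups was compared with limma 3.58.1 (lmFit, eBayes, two-sided, R 4.3.3), with Benjamini-Hochberg adjustment over 21781 probes. A gene took its brightest probe. Of the probes, 16104 were named by accession and 3472 by symbol. Correlations used 100000 permutations. The procedure was also run on simulated data made with known changes, whose outcome is not given here. Members, lists, pairs and motifs were chosen with earlier results of these data known. All 31 members were named, with values by group for the called ones and 6 more. Alternatives changed normalisation, filter, test, covariates and arrays. Background correction in these was normexp with an offset of 50. All p-values measure the spread between mice, and the number of arrays limits their precision. Some genes are not reported here.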

Additional observations from a re-analysis of the deposited data

How the results depend on the processing

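Insig2 was called lower in the quercetin group than in the control group in 12 of 13 alternatives (log2 difference from -0.84 to -0.34), the exception being Arntl as a covariate, and Sc5d in 4 of 13 (from -0.33 to -0.23). The number of members called fell from 2 to 1 with scanner values (normexp and loess, or median centring), all 36 arrays in one fit, the slide as a block, the methods' t-test, array weights, or without HF-Q replicate 2, and to 0 with the Arntl covariate. With loess and without that replicate, an alternative chosen after seeing the data, Insig2 and Lcat were called. Over all probes, 513 calls (63.4% higher in HF-Q) became 77 with median centring (32.5% higher), 210 with the slide (73.8% higher), 804 with array weights and 1 with the Arntl covariate.

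For the control group against t=0, 1 member was called in place of 0 with loess, Feature Extraction signals or quantile normalisation (Lcat), and with array weights (Mvd). Median centring moved the share of calls higher in the control group from 51.3% to 85.0%. With Arntl as a covariate, Dbp changed sign from -0.38 to 0.37 (adjusted p = 0.0258). For the quercetin group against t=0, 2 members (Insig2 and Scap) became 0 with median centring, where 396 probes were called in place of 2596, and array weights called 4220. The share of calls higher was 34.4% with Feature Extraction signals, beside 55.5%. With the replicate number as a block (replicate block), 4 members were called there (Abcg8, Insig2, Nsdhl and Scap), 2 against the control group and 0 for the control group against t=0; the numbers do not pair the mice. The cause of these changes was not tested.

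The median correlation among synthesis genes under loess was 0.76, 0.64 and 0.61 in the t=0, control and quercetin group, beside 0.76, 0.55 and 0.63. Without HF-Q replicate 2 it was 0.64 in the quercetin group. The limits are 12 mice a group, RNA of whole liver, and dim probes close to background.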
